A study of Mus musculus with 12 samples.

Results

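Messenger RNA levels of the aminoacyl-tRNA synthetases were examined in CD4 T cells of mice, either Pkm2 knockout (KO) or wild type (WT). The members were drawn by a rule on gene symbols, set with earlier results of these data known. It took every gene symbol made of 1 capital letter followed by "ars", with or without a closing 1 or 2, together with Eprs, Farsa, Farsb and the scaffold proteins Aimp1, Aimp2 and Eef1e1. The rule found 40 of 55450 genes, made up of 20 genes for cytosolic enzymes, 17 for mitochondrial enzymes and 3 for scaffold proteins of the multisynthetase complex. Symbols ending in 2 denote the mitochondrial enzymes, and all 40 members were expressed highly enough to be tested in every comparison. Naive T cells had been taken from lymph nodes and spleen, kept for 24 hours in 25 ng/mL IL7, a survival cytokine of T cells, and positively selected for CD4. The stimulated KO and stimulated WT cells were in addition cultured on plate-bound anti-CD3 at 1 ug/mL with anti-CD28 at 2 ug/mL, antibodies that engage the T cell receptor and its costimulatory receptor. Resting KO and resting WT cells had IL7 alone, and each of the 4 groups held 3 libraries. The labels name neither the allele or driver of the knockout nor the age of the mice, and other labels call the source splenocytes and the culture overnight. Whether the 3 libraries of each group stem from different animals or cultures is not stated, so a p-value speaks only of the spread among these libraries, which may be technical.

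An aminoacyl-tRNA synthetase joins an amino acid to its transfer RNA, the step that sets which amino acid a codon is read as. Cytosolic synthetases serve the bulk of protein synthesis, and a separate set encoded in the nucleus is imported into mitochondria to translate the few proteins of the mitochondrial genome. Several cytosolic enzymes sit together in a multisynthetase complex held by Aimp1, Aimp2 and Eef1e1, while others are free. Gars and Kars each encode both the cytosolic and the mitochondrial enzyme for glycine and lysine, and Eprs is a single protein that charges both glutamate and proline. An activated T cell enlarges and makes more protein before it divides, and the transcription factors Atf4 and Myc are both known to act on synthetase genes.

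The promoters were searched for the sites of such factors, and some with an Atf4-type match are shown because they mark out a few of the cytosolic genes. RefSeq promoters (GRCm38.p6, 250 bases before to 50 bases after the start) matched 30 of the 40 members, of which 13 were cytosolic, 14 mitochondrial and 3 scaffold. The 10 members with no entry included Cars, Hars, Hars2, Lars, Nars, Pars2, Rars, Vars and Wars. On both strands, TGATGNAAT, the amino acid response element that Atf4 binds with a C/EBP partner, occurred in the promoters of 3 of the 13 cytosolic genes, 0 of the 14 mitochondrial genes and 0 of the 3 scaffold genes, against 0.965% of all promoters of this length. Windows of 2 of these genes are shown with the match in capitals, on the opposite strand to the gene in both, and with 10 bases on either side:
Gars: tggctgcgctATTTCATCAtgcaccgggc
Iars: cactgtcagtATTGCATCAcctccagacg
They lie at chr6:55037960-55037988 and chr13:49682126-49682154, both on the plus strand. Counted as an offset from the first transcribed base (offset 0), the match began at -31 for Gars and at 6 for Iars. Gars, glycyl-tRNA synthetase, had the largest response to stimulation of the enzymes described below, and the 250 bases before its start (chr6:55037751-55038000, plus strand) are given with the same match in capitals:
Gars: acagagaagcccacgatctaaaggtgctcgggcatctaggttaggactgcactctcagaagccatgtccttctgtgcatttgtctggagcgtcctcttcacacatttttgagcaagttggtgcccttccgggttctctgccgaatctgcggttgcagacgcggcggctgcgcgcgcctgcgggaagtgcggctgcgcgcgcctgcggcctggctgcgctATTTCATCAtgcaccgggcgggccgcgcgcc
CACGTG, the E-box that Myc binds with Max, occurred in the promoters of 4 cytosolic genes, among them Farsb, Iars and Tars, and of the mitochondrial Ears2, against 7.15% of all promoters. Iars thus held both motifs, which did not overlap. The ETS-type motif CCGGAAGT was found for Farsa, Mars, Rars2 and Aimp1, against 3.89% of all promoters, and the NRF1-type motif GCGCATGCG for Vars2 and Wars2, against 1.75%. A match describes letters in a window and not a bound site.

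Library totals ran from 67333508 to 76891826 counts in stimulated and from 63266506 to 72128454 counts in resting groups. Levels are given as CPM, counts divided by a library size scaled with TMM over the 12 libraries, and levels compared between genes as CPM per kilobase (kb) of exon. Pkm, the targeted gene, stood at 1056, 1065 and 1036 CPM in stimulated KO libraries against 2483, 2450 and 2521 CPM in stimulated WT libraries, and at 172, 195 and 188 CPM in resting KO libraries against 424, 431 and 509 CPM in resting WT libraries. It fell by 1.23 ± 0.03 in stimulated and by 1.3 ± 0.08 in resting KO cells, as log2 fold changes with their SE (adjusted p of edgeR, 1.4e-08 and 0.0041). Gene counts do not separate the M2 transcript from the M1 transcript. The CD4 T cell markers summed to 3241 to 3347 CPM in stimulated and 4038 to 5060 CPM in resting libraries, and Cd4 itself was never under 353 CPM. Myeloid markers, 13 genes, summed to 101 to 107 CPM in stimulated KO and 41.8 to 71.5 CPM in stimulated WT libraries. At rest they summed to 1097 to 1122 CPM in KO libraries and to 3237, 1788 and 1203 CPM in WT libraries 1, 2 and 3, and no marker of the list was at 0 in any library. Xist, which marks female cells, was at 941 to 1126 CPM in stimulated and at most 0.0866 CPM in resting libraries, while Ddx3y of the Y chromosome was at 0 in stimulated libraries (a count of 0 allows up to 0.0446 CPM) and at 143 to 167 CPM in resting libraries. Stimulation, the sex of the source and the table in which the libraries were deposited therefore cannot be told apart in any comparison of stimulated with resting cells. In bulk RNA, fewer cells of a type and less RNA per cell cannot be told apart either.

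Cytosolic synthetase messages were several times more abundant than mitochondrial ones in every group. The median cytosolic enzyme had 82.6 CPM per kb in stimulated KO, 83.9 in stimulated WT, 25.4 in resting KO and 23.0 in resting WT cells, while the median mitochondrial enzyme had 11.3, 11.9, 7.63 and 7.21 CPM per kb in the same 4 groups. In stimulated cells Kars, lysyl-tRNA synthetase, had the highest level per length, at 196 CPM per kb in KO and 202 in WT. In resting cells Vars, valyl-tRNA synthetase, led the cytosolic enzymes with 42.4 CPM per kb in KO and 40.8 in WT, but its libraries overlapped those of Kars. Cars, cysteinyl-tRNA synthetase, had the lowest cytosolic level throughout, at 40.2 and 39.7 CPM per kb in stimulated KO and WT cells and 9.49 and 7.70 in resting KO and WT cells. Among mitochondrial enzymes Lars2 had the highest mean in all 4 groups, Wars2 the lowest in stimulated cells (3.10 CPM per kb in KO, 3.03 in WT), and Nars2 the lowest in resting cells (2.42 in KO, 2.30 in WT). Summed over the 20 cytosolic genes, the level was 5777 to 5909 CPM in stimulated KO, 5918 to 6105 in stimulated WT, 1574 to 1622 in resting KO and 1405 to 1604 CPM in resting WT libraries.

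**Figure D1:**
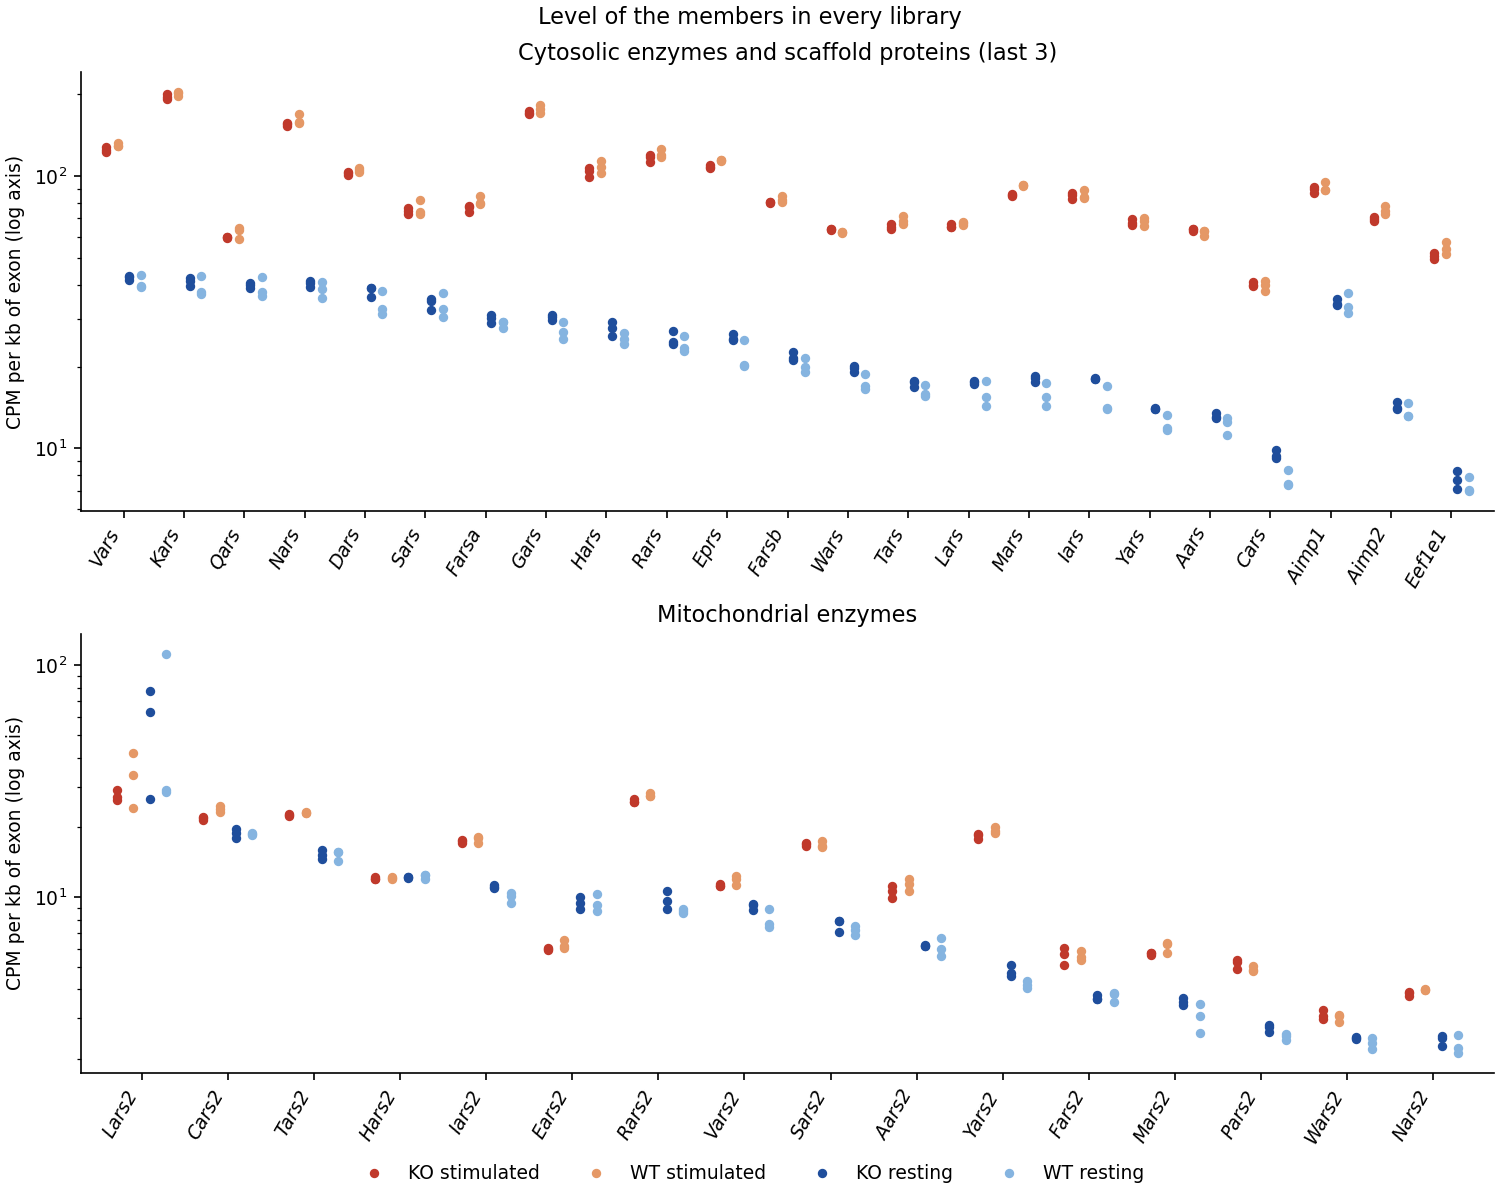
Level of the members in every library, as CPM per kilobase of exon on a log axis, with 3 points per group. Cytosolic and scaffold genes (upper panel) stand higher in all stimulated libraries than in all resting ones, while most mitochondrial genes (lower panel) shift less, Ears2 is lower in stimulated libraries, and Lars2 spreads widely at rest.

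Stimulation was accompanied by higher levels of nearly the whole family in both genotypes, and the cytosolic enzymes and scaffold proteins changed far more than the mitochondrial enzymes. In KO cells 37 of 40 members rose and 1 fell, where 82.9% of all 17460 genes tested were called, 39.6% higher and 43.2% lower. In WT cells the counts were again 37 and 1, where 84.1% of all genes tested were called, 39.3% higher and 44.8% lower. All 20 cytosolic genes and all 3 scaffold genes rose in both genotypes, and 14 of 17 mitochondrial genes rose. The median log2 fold change of the cytosolic enzymes was 1.93 in KO and 2.09 in WT, that of the mitochondrial enzymes 0.65 in KO and 0.79 in WT, and that of all genes tested -0.11 in KO and -0.14 in WT. Enzymes of the multisynthetase complex (8 genes) had a median of 2.15 in KO and 2.35 in WT, and the 12 other cytosolic genes 1.91 in KO and 2.08 in WT; the difference between those classes was not tested. Genes of other cells moved as well: all 13 myeloid markers were lower in stimulated cells (list median -4.13 in KO, -5.09 in WT). The CD4 marker sum was also lower in stimulated cells. Of 12 CD4 markers 3 were called higher and 8 lower in KO, and 3 higher and 9 lower in WT. As a percentage of the CD4 marker sum in the same library, the cytosolic level was 174 to 182% in stimulated KO and 179 to 185% in stimulated WT libraries, against 32.5 to 35.4% in resting KO and 31.7 to 35.0% in resting WT libraries. The lower CD4 sum of stimulated libraries makes the contrast wider on this scale than in CPM.

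Among the scaffold proteins, Eef1e1 changed most of all members. It stood at 133, 127 and 130 CPM in stimulated KO libraries against 19.6, 21.1 and 18.1 CPM in resting KO libraries, and at 132, 146 and 138 CPM in stimulated WT libraries against 17.9, 17.9 and 19.98 CPM in resting WT libraries. The groups were far apart, and the log2 fold change was 2.73 ± 0.07 in KO and 2.90 ± 0.07 in WT (edgeR adjusted p = 7.6e-13 and 4.2e-13). Aimp2, which anchors the complex, rose by 2.29 ± 0.05 in KO and 2.46 ± 0.05 in WT, though 40.8% of its exon bases are shared with Eif2ak1 on the opposite strand and the sources used here do not say whether counting used the strand. Aimp1, which also has roles as a secreted protein, rose by 1.37 ± 0.06 in KO and 1.42 ± 0.06 in WT.

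Gars led the cytosolic enzymes. Its level was 415, 406 and 402 CPM in stimulated KO libraries against 72.5, 73.8 and 70.8 CPM in resting KO libraries. In WT it was 407, 435 and 421 CPM in stimulated libraries against 63.6, 60.3 and 69.5 CPM in resting libraries. Every stimulated library was above every resting one, with a 5.63-fold change in KO and a 6.53-fold change in WT (edgeR adjusted p = 4.1e-13 and 2.0e-13). Mars charges methionine and so serves the cytosolic initiator tRNA. Mars had 254, 250 and 256 CPM in stimulated KO libraries against 52.0, 54.0 and 54.7 CPM in resting KO libraries. It had 273, 276 and 275 CPM in stimulated WT libraries against 45.9, 42.6 and 51.7 CPM in resting WT libraries. Its log2 fold change was 2.24 ± 0.06 in KO and 2.55 ± 0.06 in WT. In WT the next were Iars for isoleucine (2.24 ± 0.07 in KO, 2.51 ± 0.07 in WT), Yars for tyrosine (2.28 ± 0.05 in KO, 2.47 ± 0.05 in WT) and Eprs (2.08 ± 0.07 in KO, 2.39 ± 0.07 in WT). In KO the order was another: Aars for alanine (2.28 ± 0.05), Yars and Kars (2.26 ± 0.06) came after Gars. Aars shares 23.1% of its exon bases with Exosc6 on the same strand. Qars and Sars stood at the low end, and all the other cytosolic enzymes lay between them and Gars. Qars, the glutaminyl enzyme, had 168, 168 and 166 CPM in stimulated KO libraries against 109, 113 and 111 CPM in resting KO libraries, a log2 fold change of 0.59 ± 0.06, with 0.68 ± 0.06 in WT. Sars, the seryl enzyme, rose by 1.13 ± 0.07 in KO and 1.19 ± 0.07 in WT.

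Farsa and Farsb encode the alpha and beta subunits of a single enzyme, cytosolic phenylalanyl-tRNA synthetase, and the fold change of Farsb was the larger in both genotypes. Farsa had 142, 141 and 135 CPM in stimulated KO libraries against 55.0, 53.0 and 56.2 CPM in resting KO libraries, a log2 fold change of 1.35 ± 0.04, with 1.50 ± 0.04 in WT. Farsb had 176, 177 and 176 CPM in stimulated KO libraries against 47.3, 49.8 and 46.7 CPM in resting KO libraries, a log2 fold change of 1.88 ± 0.05, with 2.03 ± 0.05 in WT. Per length the subunits stood at 76.2 (Farsa) and 80.2 (Farsb) CPM per kb in stimulated KO and 81.1 and 82.5 in stimulated WT cells, against 30.0 and 21.8 in resting KO and 28.7 and 20.2 CPM per kb in resting WT cells. The subunit levels were thus closer to each other in stimulated than in resting cells; 11.3% of the Farsb exon bases are shared with Sgpp2 on the opposite strand, and the difference between the subunits was not tested.

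Yars2 and Rars2 were among those with the largest responses of the mitochondrial enzymes. Yars2, for tyrosine, had 58.5, 56.05 and 59.1 CPM in stimulated KO libraries against 14.4, 16.1 and 14.8 CPM in resting KO libraries, and 59.5, 60.8 and 63.1 CPM in stimulated WT libraries against 13.1, 12.8 and 13.7 CPM in resting WT libraries. Its log2 fold change was 1.94 ± 0.05 in KO and 2.21 ± 0.05 in WT (edgeR adjusted p = 1.4e-12 and 4.4e-13). Rars2, for arginine, rose by 1.42 ± 0.06 in KO and 1.66 ± 0.06 in WT. Sars2 (1.15 ± 0.06 in KO, 1.23 ± 0.06 in WT) and Mars2 (0.69 ± 0.08 in KO, 1.00 ± 0.08 in WT) followed in WT. Of the other mitochondrial enzymes in the plot of levels by library, those that rose had log2 fold changes from 0.21 ± 0.04 (Cars2) to 0.92 ± 0.06 (Pars2) in KO and from 0.35 ± 0.04 (Cars2) to 0.97 ± 0.06 (Pars2) in WT. Mitochondrial translation begins with a methionine that Mars2 attaches and a formyl group that Mtfmt adds.

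Ears2 was the one member that fell. It stood at 12.2, 12.2 and 12.4 CPM in stimulated KO libraries against 18.2, 19.3 and 20.6 CPM in resting KO libraries, and at 12.6, 13.4 and 12.4 CPM in stimulated WT libraries against 17.9, 18.9 and 21.1 CPM in resting WT libraries. The groups did not overlap, and the log2 fold change was -0.66 ± 0.07 in KO and -0.59 ± 0.07 in WT (edgeR adjusted p = 1.6e-06 and 4.4e-06). Ears2 charges 2 mitochondrial tRNAs, for glutamate and glutamine; on the second, the GatCAB amidotransferase then converts the glutamate to glutamine. The genes of that amidotransferase moved the other way: Gatb rose by 1.32 ± 0.05 in KO and 1.50 ± 0.05 in WT, Gatc by 1.01 ± 0.07 in KO and 1.06 ± 0.07 in WT, and Qrsl1 by 0.70 ± 0.06 in KO and 0.73 ± 0.06 in WT. Hars2, for histidine, lay between 39.9 and 41.6 CPM in 11 libraries and at 39.8 CPM in WT resting library 1, with log2 fold changes of -0.02 ± 0.03 in both genotypes (edgeR adjusted p = 0.67 in KO and 0.54 in WT). Its neighbour Hars, which shares 195 exon bases with it on the opposite strand, rose by 1.92 ± 0.06 in KO and 2.09 ± 0.06 in WT.

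These directions depend on the scaling for the weakest mitochondrial responses. Scaling by library totals alone moved the median log2 fold change of all genes by -0.33 in KO and -0.34 in WT. Under it the mitochondrial counts became 11 higher and 4 lower in KO and 12 higher and 2 lower in WT, while all 20 cytosolic genes remained higher in both. Cars2 and Vars2 turned to -0.12 and -0.02 in KO, Hars2 was called lower in both genotypes (-0.34 in KO, -0.36 in WT), Lars2 was called lower in KO (-1.33, edgeR adjusted p = 0.045), and Wars2 was no longer called in either.

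Set against each other by amino acid, the cytosolic enzyme had the larger response in 16 of 18 pairs in both genotypes. The median difference in log2 fold change, cytosolic minus mitochondrial, was 1.32 in KO and 1.45 in WT, and the pairs are not independent because Eprs and Fars2 each enter 2 of them. Eprs and Ears2 were among the widest, at 2.75 in KO and 2.98 in WT, so that the ratio of their levels per length was 18.1 ± 0.34 in stimulated KO and 18.3 ± 0.89 in stimulated WT cells, against 2.71 ± 0.18 in resting KO and 2.31 ± 0.12 in resting WT cells (SD, n = 3). The histidyl pair had ratios of 8.64 ± 0.44 in stimulated KO and 8.95 ± 0.50 in stimulated WT cells against 2.26 ± 0.14 in resting KO and 2.07 ± 0.10 in resting WT cells. In the seryl pair both compartments moved about alike, with a ratio of Sars to Sars2 of 4.42 ± 0.049 in stimulated KO and 4.52 ± 0.14 in stimulated WT against 4.50 ± 0.49 in resting KO and 4.63 ± 0.44 in resting WT cells. In resting cells Cars was below Cars2 per length, with ratios of 0.503 ± 0.016 in KO and 0.411 ± 0.035 in WT. In stimulated cells it was above Cars2, at 1.84 ± 0.016 in KO and 1.66 ± 0.069 in WT. Lars was likewise below Lars2 at rest, at 0.387 ± 0.233 in KO and 0.398 ± 0.209 in WT. Stimulated ratios of Lars to Lars2 were 2.39 ± 0.096 in KO and 2.13 ± 0.62 in WT, and Lars2 varied widely between libraries.

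**Figure D2:**
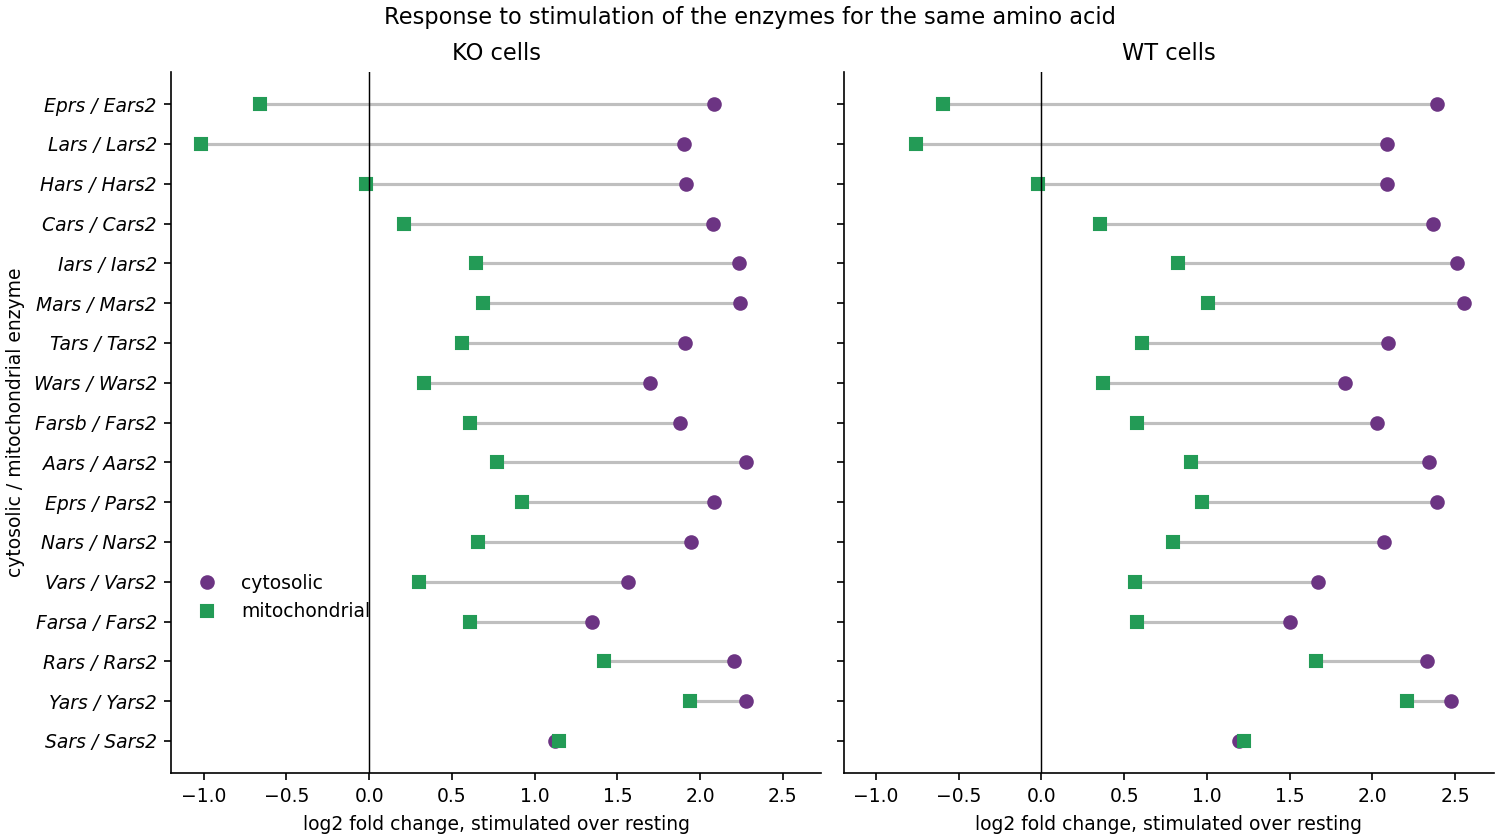
Log2 fold change of stimulated over resting cells for the cytosolic (circles) and mitochondrial (squares) enzyme of each amino acid, in KO (left) and WT (right) cells. In the 17 pairs drawn the circle lies to the right of the square except in the seryl pair.

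Taken as classes, the mean log2 level of the 20 cytosolic enzymes exceeded that of the 17 mitochondrial enzymes by 3.03 ± 0.01 in stimulated KO, 3.02 ± 0.06 in stimulated WT, 1.76 ± 0.05 in resting KO and 1.72 ± 0.03 in resting WT libraries (SD, n = 3; log2 CPM per kb). The stimulated groups lay above the resting groups in every library, and KO and WT libraries overlapped in both conditions. Part of the class ranking rests on exon length: Mars2 is annotated with 11294 exon bases, which lowers its level per kb. With Lars2 left out, whose level varied between resting libraries, the differences were 3.12 in stimulated KO, 3.11 in stimulated WT, 1.94 in resting KO and 1.90 in resting WT cells. Without Lars2 the mitochondrial messages summed to 11.8 to 11.9% of the cytosolic ones in stimulated KO, 11.6 to 12.3% in stimulated WT, 26.7 to 27.7% in resting KO and 26.8 to 29.2% in resting WT libraries.

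**Figure D3:**
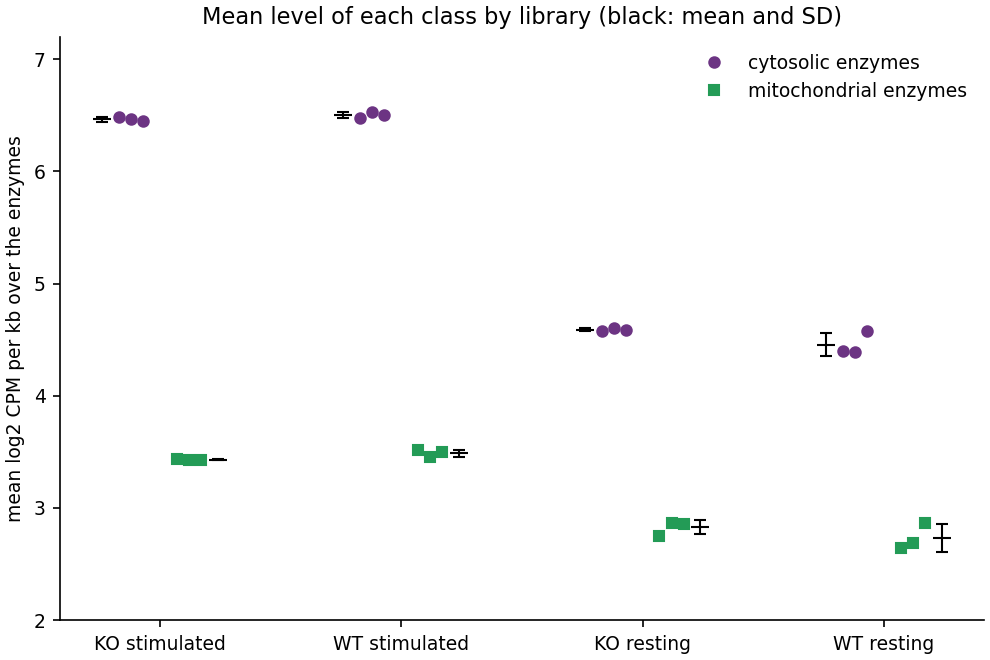
Mean log2 CPM per kilobase of the 20 cytosolic enzymes (circles) and the 17 mitochondrial enzymes (squares) in each library, with the mean and SD of each group in black. The gap between the classes is 3.03 in stimulated KO and 3.02 in stimulated WT cells, against 1.76 in resting KO and 1.72 in resting WT cells.

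Lars2, the mitochondrial leucyl enzyme, varied widely between the resting libraries of both genotypes. It had 113, 102 and 106 CPM in stimulated KO and 164, 94.8 and 131 CPM in stimulated WT libraries, against 103, 301 and 246 CPM in resting KO and 112, 111 and 435 CPM in resting WT libraries. KO libraries 2 and 3 and WT library 3 were high at rest, and the other 3 resting libraries fell within the stimulated range. Its log2 fold change for stimulation, -1.02 ± 0.58 in KO and -0.76 ± 0.58 in WT, was not called (edgeR adjusted p = 0.13 in KO and 0.24 in WT), and the WT value was 0.22 without resting WT library 3. Scaled by library totals alone, the KO value was called lower (-1.33, adjusted p = 0.045). The same 3 libraries were high for Gm42418, a long noncoding RNA annotated on chromosome 17 (39846958 to 39848788), which had 1005, 2828 and 2506 CPM in resting KO and 1167, 1237 and 4310 CPM in resting WT libraries. Lars2 stood at 9.81 to 10.6% of Gm42418 in resting KO and 8.99 to 10.1% in resting WT libraries, and at 20.2 to 23.5% in stimulated KO and 14.9 to 20.03% in stimulated WT libraries. Whether Gm42418 has a part in the Lars2 counts was not tested.

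**Figure D4:**
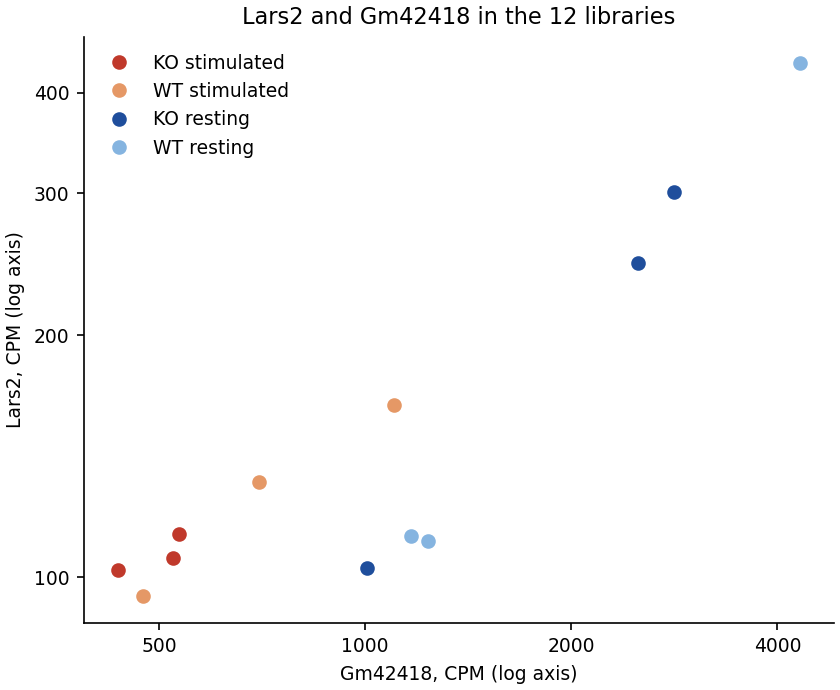
Lars2 against Gm42418 in each of the 12 libraries, both in CPM on log axes, coloured by group. The resting libraries with the highest Gm42418 (2506 to 4310 CPM) also have the highest Lars2 (246 to 435 CPM).

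Between the genotypes, stimulated cells differed little in synthetase levels. Of 40 members 1 was called, lower in KO, where 4.76% of all 15090 genes tested were called, 3.37% higher and 1.4% lower, so that the members' share was near the background. That gene was Mars, at 254, 250 and 256 CPM in stimulated KO libraries against 273, 276 and 275 CPM in stimulated WT libraries, a log2 fold change of -0.11 ± 0.03 (edgeR adjusted p = 0.043). Its KO libraries all lay below its WT libraries, but the call was lost when any of 5 of the 6 libraries was left out (adjusted p of 0.083 without WT library 1, 0.12 without WT library 3, and 0.15, 0.19 and 0.10 without KO libraries 1, 2 and 3). With all libraries kept, it was also lost under scaling by library totals (adjusted p = 0.085) and in the fit over all 12 libraries (0.44). Without WT library 2 it held at 0.021 and Qars and Mars2 were also called lower, where 1408 of all 15407 genes tested were called, 491 of them lower. The median over the members was -0.05, with 9 of 40 above 0, against -0.0002 over all genes tested. Related lists leaned alike: 2 of 10 other genes of tRNA charging, proofreading and export lay above 0 (median -0.05). So did 1 of 78 mitochondrial ribosomal proteins (median -0.07) and 2 of 78 cytosolic ribosomal proteins (median -0.05). Kars and Gars, the cytosolic enzymes with the highest levels per length, had -0.03 ± 0.03 and -0.04 ± 0.03 (edgeR adjusted p = 0.60 and 0.51). The scaffold genes Aimp2 and Eef1e1 had -0.10 ± 0.03 and -0.09 ± 0.04 (adjusted p = 0.14 and 0.21), and the mitochondrial Cars2 had -0.12 ± 0.04 (adjusted p = 0.09). Wars, the tryptophanyl enzyme, is known as an interferon-induced gene. Of 21 genes of an interferon response list, 11 were called higher and 1 lower in the same KO cells (list median 0.84). Sums over that list overlapped, at 2008 to 2089 CPM in stimulated KO and 1998 to 2082 CPM in stimulated WT libraries. Wars itself had 184, 183 and 182 CPM in stimulated KO against 178, 179 and 179 CPM in stimulated WT libraries, a log2 fold change of 0.04 ± 0.03 (edgeR adjusted p = 0.39). Myeloid, B cell, CD8 T cell and dendritic cell markers had higher sums in the same KO libraries. Neutrophil, NK cell and erythroid sums overlapped between the genotypes. Erythroid markers summed to 15.6 to 27.0 CPM in KO and 20.5 to 79.9 CPM in WT libraries (list median -1.05, 0 of 5 tested above 0). Of 13 myeloid markers 6 were called higher (list median 0.75), and of 12 B cell markers 1 was called higher with 12 above 0 (list median 0.66; sums of 883 to 918 CPM in KO and 462 to 707 CPM in WT libraries). The 2 CD8 T cell markers summed to 31.7 to 36.4 CPM in KO and 17.3 to 24.0 CPM in WT libraries, with 1 called higher. The part of these cells in the synthetase values was not tested.

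In resting cells 0 of 40 members were called by edgeR (10 at an unadjusted p under 0.05, against 2284 of all 16637 genes tested), where 0.0361% of all genes were called, 0.018% higher and 0.018% lower. DESeq2 called 1 member, higher in KO, where it called 518 of all 16637 genes, 131 higher and 387 lower. Values leaned upward in KO: 35 of 40 members lay above 0, the cytosolic median was 0.11 with 20 of 20 above 0, the mitochondrial median 0.07 with 12 of 17 above 0, and the median of all genes 0.01. Cars had the largest value, at 29.7, 30.3 and 31.8 CPM in resting KO libraries against 23.9, 23.7 and 26.9 CPM in resting WT libraries. All 3 KO libraries lay above the WT libraries, with a log2 fold change of 0.29 ± 0.06 and an edgeR adjusted p of 0.21; DESeq2 gave an adjusted p of 0.0098, and the edgeR fit over all 12 libraries 0.031. Iars had 79.9, 80.2 and 79.4 CPM in resting KO libraries against 61.8, 62.1 and 75.1 CPM in resting WT libraries, a log2 fold change of 0.26 ± 0.07 (edgeR adjusted p = 0.28). WT library 3 was the one nearest to the KO libraries for both genes. Vars and Kars, the cytosolic enzymes with the highest levels per length at rest, had 0.04 ± 0.05 and 0.05 ± 0.06 (adjusted p = 0.72 for both), and Aimp1 and Aimp2 had 0.01 ± 0.06 and 0.06 ± 0.06 (adjusted p = 0.95 and 0.70).

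Markers of other cells also differed between the resting WT libraries. The summed cytosolic level was 1574, 1622 and 1598 CPM in resting KO libraries against 1413, 1405 and 1604 CPM in resting WT libraries, so that WT libraries 1 and 2 were low and WT library 3 lay among the KO libraries. In WT libraries 1, 2 and 3, in that order, B cell markers summed to 2236, 1767 and 1267 CPM and erythroid markers to 1503, 452 and 56.3 CPM. Neutrophil markers summed to 167, 110 and 41.3 CPM and CD4 markers to 4038, 4402 and 5060 CPM. In resting KO libraries 1, 2 and 3, B cell markers summed to 1625, 1849 and 1809 CPM and erythroid markers to 1456, 203 and 130 CPM. There neutrophil markers summed to 115, 44.2 and 51.6 CPM and CD4 markers to 4444, 4933 and 4911 CPM. WT libraries 1 and 2 had nearly equal cytosolic sums, while their myeloid sums were 3237 and 1788 CPM. The part of these cells in the lean was not tested. None of the 13 myeloid markers was called (list median -1.17, with 7 at an unadjusted p under 0.05). As a percentage of the CD4 marker sum, the cytosolic level was 35.4, 32.9 and 32.5% in resting KO and 35.0, 31.9 and 31.7% in resting WT libraries, so that the genotypes overlapped on that scale. With WT libraries 1 and 2 left out, an alternative chosen after seeing the data, the median over the members was 0.04 in place of 0.08. That fit compares with 1 WT library, and the libraries removed were those with the lowest cytosolic sums, so a smaller median was fixed by which were removed.

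**Figure D5:**
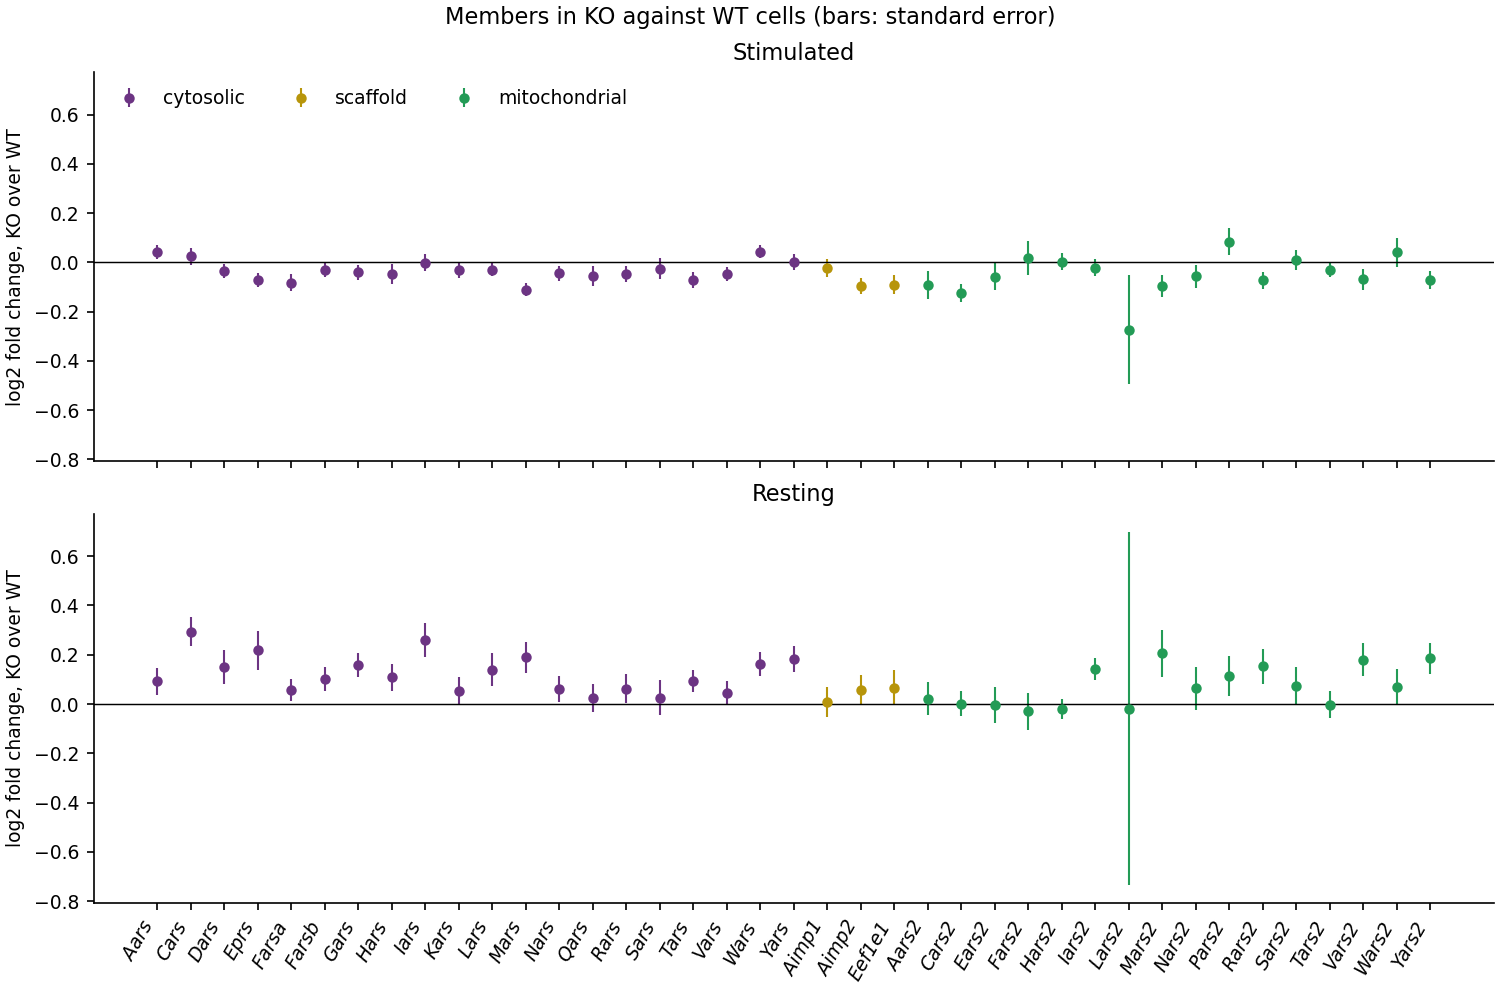
Log2 fold change of KO over WT, with its standard error, for the members in stimulated (top) and resting (bottom) cells. Stimulated values cluster just under 0 (median -0.05), resting values lean above 0 (median 0.08), and Lars2 has by far the widest error at rest.

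Whether the response to stimulation differed between the genotypes was tested in a fit over all 12 libraries, and edgeR called 0 of 40 members (19 at an unadjusted p under 0.05, against 2772 of all 17460 genes tested), where 0.693% of all genes were called, 0.556% higher and 0.137% lower. The values, KO response minus WT response, were below 0 for 38 of 40 members and for 20 of 20 cytosolic ones, with a cytosolic median of -0.16, a mitochondrial median of -0.13 and a median of -0.01 over all genes. The largest were Mars2 (-0.32 ± 0.12, edgeR adjusted p = 0.21), Mars (-0.31 ± 0.08, 0.099) and Eprs (-0.30 ± 0.10, 0.16), and the lowest adjusted p was 0.091, for Yars2 (-0.27 ± 0.07). The lean was not particular to the synthetases. Of 10 other genes of tRNA charging, proofreading and export 0 lay above 0 (median -0.16), and of 78 mitochondrial ribosomal proteins 10 did (median -0.10). Of 78 cytosolic ribosomal proteins 71 lay above 0 (median 0.06). For Mars, KO over WT was -0.11 ± 0.03 in stimulated and 0.19 ± 0.06 in resting cells, so that both conditions entered its value. KO over WT was -0.10 in stimulated and 0.21 in resting cells for Mars2, -0.07 and 0.22 for Eprs, and -0.07 and 0.19 for Yars2. The cytosolic median of KO over WT was -0.04 in stimulated and 0.11 in resting cells, the larger value being at rest. The mitochondrial median was -0.06 in stimulated and 0.07 in resting cells. DESeq2 called 10 members lower (405 of all 17460 genes lower), among them Mars (-0.34, adjusted p = 0.0029) and Yars2 (-0.30, 0.0058). With resting WT library 3 left out edgeR called 16 members lower (741 of all 17900 genes tested lower), and the member median was -0.21 in place of -0.15. With resting WT libraries 1 and 2 left out instead, the member median was -0.06. That fit was chosen after seeing the data and leaves 1 resting WT library. The size of the difference thus depends on which resting WT libraries are kept.

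Other genes of tRNA charging and of amino acid supply were read beside the synthetases. Of 10 further genes of charging, proofreading and tRNA export, 8 rose with stimulation in both genotypes; Xpot, which carries tRNA out of the nucleus, rose by 2.16 ± 0.05 in KO and 2.32 ± 0.05 in WT, and Aarsd1, an editing protein, by 2.04 ± 0.04 in KO and 2.24 ± 0.04 in WT. Prorsd1 was called lower in KO (-0.16 ± 0.07, edgeR adjusted p = 0.05) and not in WT (0.10 ± 0.07, 0.21). Of 20 genes of the amino acid response, 17 rose and 3 fell in KO, and 16 rose and 3 fell in WT. Atf4 itself stood at 457, 446 and 432 CPM in stimulated KO libraries against 120, 121 and 120 CPM in resting KO libraries, and at 416, 474 and 453 CPM in stimulated WT libraries against 127, 122 and 123 CPM in resting WT libraries. Psat1, of serine synthesis, rose by 4.18 ± 0.11 in KO and 4.40 ± 0.11 in WT, and the large amino acid transporter Slc7a5 by 3.14 ± 0.11 in KO and 3.47 ± 0.12 in WT. Ddit3, which shares 68 exon bases with Mars on the opposite strand, was one of the 3 that fell (-0.92 ± 0.08 in KO, -0.98 ± 0.08 in WT), together with Ddit4 and Nupr1. Myc rose by 2.92 ± 0.06 in KO and 3.13 ± 0.06 in WT.

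Other parts of the translation machinery gave a range of medians for the same contrast, and differences between the lists were not tested. The cytosolic ribosomal proteins, 78 genes tested of 80, had medians of 0.26 in KO and 0.19 in WT, with 44 higher and 10 lower in KO and 36 higher and 14 lower in WT. The mitochondrial ribosomal proteins had medians of 1.54 in KO and 1.60 in WT, with 77 of 78 higher in both. Genes with symbols starting Eif1 to Eif6 had medians of 1.51 in KO and 1.63 in WT, with 46 of 54 higher in both. Being drawn by symbol, that list holds initiation factors but also other genes, such as the kinase gene Eif2ak1. Its lowest value was -15.7 in KO and -15.8 in WT, where the sex-linked transcripts had medians of -15.6 in KO and -15.5 in WT. The mitochondrial synthetase median of 0.65 in KO and 0.79 in WT thus stood below that of the mitochondrial ribosomal proteins, and the cytosolic synthetase median of 1.93 in KO and 2.09 in WT above that of the cytosolic ribosomal proteins. Of the mitochondrial initiation and elongation factors 6 of 7 rose in both genotypes, led by Gfm1 (2.34 ± 0.05 in KO, 2.50 ± 0.05 in WT), and of the cytosolic elongation factors 4 of 5, led by Eef1d (1.46 ± 0.06 in KO, 1.50 ± 0.06 in WT).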

How the data were processed

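Values are RSEM expected counts (estimated counts, not all of them whole) as the authors deposited them, in separate tables for resting and stimulated libraries. Per the submitters' processing notes the tools were STAR 2.7.0f, RSEM 1.3.1, cutadapt 1.18 and bcl2fastq 2.20, with mm10 as the build and no settings given. Per the labels' protocols, polyadenylated RNA was sequenced from a stranded kit. The strand setting of the counting is not stated, so overlapping genes carry some uncertainty.

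Counts were rounded, filtered with edgeR's filterByExpr (minimum count 10, total 15), scaled by TMM and tested with the robust quasi-likelihood F-test of edgeR 4.0.16 (R 4.3.3), Benjamini-Hochberg over all genes, threshold 0.05. KO was compared with WT within the 6 libraries of each condition; stimulation and the difference of responses used 1 fit of 4 group means over 12 libraries. CPM levels use the 12-library scaling; exon lengths come from the GENCODE M21 basic annotation. No replicate pair agreed within sampling noise, so all 12 libraries count. The fits were also run on simulated data, with an outcome not given here. Few genes changed in those data, unlike in the stimulation comparisons, so that run does not check the scaling or calls there.

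Named genes were Pkm and, per comparison, up to 5 cytosolic, 3 scaffold and 5 mitochondrial members past the threshold with the largest change (or the 2 of a class with the highest level per length), their partners for the same amino acid, and up to 4 per other list. Values of Farsa, Farsb, Pars2, Cars, Qars, Sars, Hars, Hars2, Aimp2, Eef1e1, Cars2, Wars, Prorsd1 and Ddit3 outside that rule were given after being seen. Members and lists were chosen with earlier results of these data known. The alternatives were DESeq2 size factors, library totals, the DESeq2 1.42.0 Wald test, other filters, a fit that was not robust, a replicate block, other choices of libraries and each library left out. Protein sequences were not analysed here. Values of 1 mitochondrial enzyme, counted in the totals, and 1 promoter window are not reported here.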

Additional observations from a re-analysis of the deposited data

How the results depend on the processing

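For stimulation, 38 members were called in KO and 37 to 39 in WT under every alternative. Under library totals 36 of the calls, matched by gene whatever the direction, were shared with the main result in each genotype. All calls under that scaling were 34 higher and 4 lower in KO and 35 higher and 2 lower in WT. In the main result they were 37 higher and 1 lower in both genotypes. The number called between genotypes in stimulated cells was 1, and 0 under library totals and in the fit over all 12 libraries. With each library left out it ran from 0 to 3, the 3 coming without WT library 2 (1408 of all 15407 genes tested called). In resting cells it was 0, and 1 with DESeq2 (518 of all 16637 genes tested called) and in the 12-library fit (161 of 17460). For the difference of responses it was 0, then 2 under library totals (176 of all 17460 genes tested called) and 10 with DESeq2 (1012 of 17460). It was 0 to 16 with each library left out, the 16 coming without resting WT library 3 (1646 of 17900). The cause was not tested.

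The cytosolic minus mitochondrial level became 2.86 in stimulated KO, 2.83 in stimulated WT and 1.66 in resting WT cells with the median over enzymes. It became 2.92, 2.90, 1.70 and 1.66 (stimulated KO, stimulated WT, resting KO, resting WT) without Gars and Kars, and 3.12, 3.11, 1.94 and 1.90 without Lars2, an alternative added after seeing the data. Leaving out each library gave 3.03 to 3.04, 2.99 to 3.04, 1.74 to 1.78 and 1.70 to 1.73 in the same order.

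Values near 0 changed sign. For KO against WT at rest, Cars2 became -8.02e-05 with DESeq2 and -0.000106 with its size factors, and Lars2 0.021 under library totals and 0.14 under the replicate block. For stimulation in KO, Cars2 and Vars2 became -0.12 and -0.022 under library totals. Without resting WT libraries 1 and 2, chosen after seeing the data and leaving 1 WT library that is assumed to vary like the other groups, KO against WT at rest became -0.10 for Aimp1, -0.020 for Aimp2, -0.050 for Kars and -0.022 for Vars, and the difference of responses 0.093 for Aimp1, 0.034 for Kars and 0.73 for Lars2. With each library left out, the resting values ran from -0.033 to 0.036 for Cars2, from -0.036 to 0.069 for Aimp1 and from -0.33 to 0.93 for Lars2, which was above 0 without KO library 1 (0.32) or WT library 3 (0.93). The stimulated value of Aimp1 ran from -0.042 to 0.0068, its difference of responses from -0.12 to 0.0084 and that of Lars2 from -1.23 to 0.062. For stimulation in WT, Lars2 ran from -1.08 to 0.22, the highest without resting WT library 3.

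Correlations did not settle whether the replicate numbers pair the libraries. For same-numbered deviations of KO and WT they were 0.33, -0.11 and 0.27 at rest and -0.03, 0.01 and 0.02 with stimulation. With the number as a replicate block, 0, 1, 38, 38 and 0 members were called at rest, with stimulation, for the response in KO, in WT, and for the difference.

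Counts over all genes moved more. At rest, 6 genes were called, against 518 with DESeq2, 40 without a filter, 161 in the 12-library fit, 34 without WT libraries 1 and 2, and 2 to 18 with each library left out. In stimulated cells 719 were called, against 1133 with DESeq2, 219 in the 12-library fit and 128 to 1408 with each library left out. For the difference, 121 were called, against 1012 with DESeq2, 204 and 215 under the filters at 1 CPM (in 3 libraries, and in 3 of each condition), and 27 to 1646 with each library left out.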
